A study of Mus musculus with 14 samples.

Results

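This comparison used 6 of the 14 arrays in the series: the 3 arrays of MPP4 (MPP4 old) and the 3 of MPP3 (MPP3 old) from the bone marrow of wild-type C57BL/6 mice aged 24 months. Both are multipotent progenitors, fluorescence-sorted as Lin-/cKit+/Sca-1+ cells; MPP4 carried Flk2, the receptor encoded by Flt3, and MPP3 was Flk2-/CD48+/CD150- by its label. The study's methods give CD150+ for MPP3, so whether those cells carried CD150 is unsettled here. The other 8 arrays, 3 of MPP3 and 5 of MPP4 from mice aged 8 to 10 weeks, set the age contrast and, in an alternative fit, the spread. Each array held RNA of 20000 cells that were enriched for cKit and sorted a second time, and the record calls the arrays biological replicates without saying how many mice gave each. No allele, agent or treatment distinguished the groups, and age was the same in both, so the contrast is between 2 gated populations.

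Multipotent progenitors stand between the blood stem cell and the cells restricted to single lineages. MPP3 is known as a myeloid-primed population that feeds granulocytes and macrophages, whereas MPP4 is lymphoid-primed and is the usual route to the common lymphoid progenitor. Before commitment such cells already transcribe part of the programs of several lineages at low level, a state called lineage priming, so the genes of granule proteins, of lymphocyte receptors and of their regulators can differ between populations that all remain multipotent.

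The values were read on a scale of ranks. Each array had been mapped to a standard exponential distribution, so that a value of 1 is reached or passed by 36.8% of the ranked probe sets of that array, a value of 2 by 13.5% and a value of 3 by 4.98%. A difference, written throughout as MPP4 minus MPP3, is therefore a difference in normalized value and not a fold change. Of 19155 genes tested with limma, 0 passed an adjusted p of 0.05 (0%), and the smallest adjusted p was 0.0886. Leaving out single arrays gave 3 genes without MPP3 old replicate 1, 2 without MPP3 old replicate 3 and 0 without each of the others. Unadjusted p-values under 0.05 numbered 1882 (9.83%), of which 1185 (6.19%) were higher in MPP4 and 697 (3.64%) lower. In an alternative model, 1 fit of all 4 groups that shares its estimate of the spread over 14 arrays, 27 genes (0.141%) passed for the same contrast in old mice, 18 higher (0.094%) and 9 lower (0.047%) in MPP4. That count was 0 without MPP4 old replicate 1, 11 without MPP4 old replicate 2 and 85 without MPP3 old replicate 3. Each SE below is from the fit of the 6 old arrays, also beside an adjusted p of the fit of all 4 groups. A gene given with only the latter adjusted p did not pass in the fit of the 6 old arrays. The groups did not overlap, every array of MPP4 lying on the same side of every array of MPP3, for 1730 genes higher in MPP4 (9.03%) and 1456 genes lower (7.6%), and these 2 shares are the background for each count of genes without overlap given for a list. The median difference over all genes was -0.00149. In bulk RNA, fewer cells of a type and less RNA per cell cannot be told apart.

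The MPP3 old arrays varied more than the MPP4 old arrays. Median standard deviations over genes were 0.0780 and 0.0440 (n = 3 each), and the deviation was larger in MPP3 old for 72.6% of genes. All 6 arrays correlated between 0.953 and 0.991 across genes, and MPP3 old replicate 1 and replicate 3 correlated on average better with the MPP4 old arrays (0.980 and 0.966) than with their own group (0.975 and 0.962). Leaving out single old arrays moved the median difference of each of the 20 gene lists whose median lay within 0.1 of 0 by over 1.5 times for at least 1 array, with a change of sign in 7. Among the 8 lists with larger medians, 4 (primary granule, Fc receptors, stem cell regulators and the sort gate) moved by over 1.5 times and 0 changed sign.

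Large differences were more often below 0 than above it. Among 28 genes that differed by more than 1, 22 were lower in MPP4 and 6 higher, whereas the 190 genes beyond 0.5 divided into 96 higher and 94 lower.

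**Figure D1:**
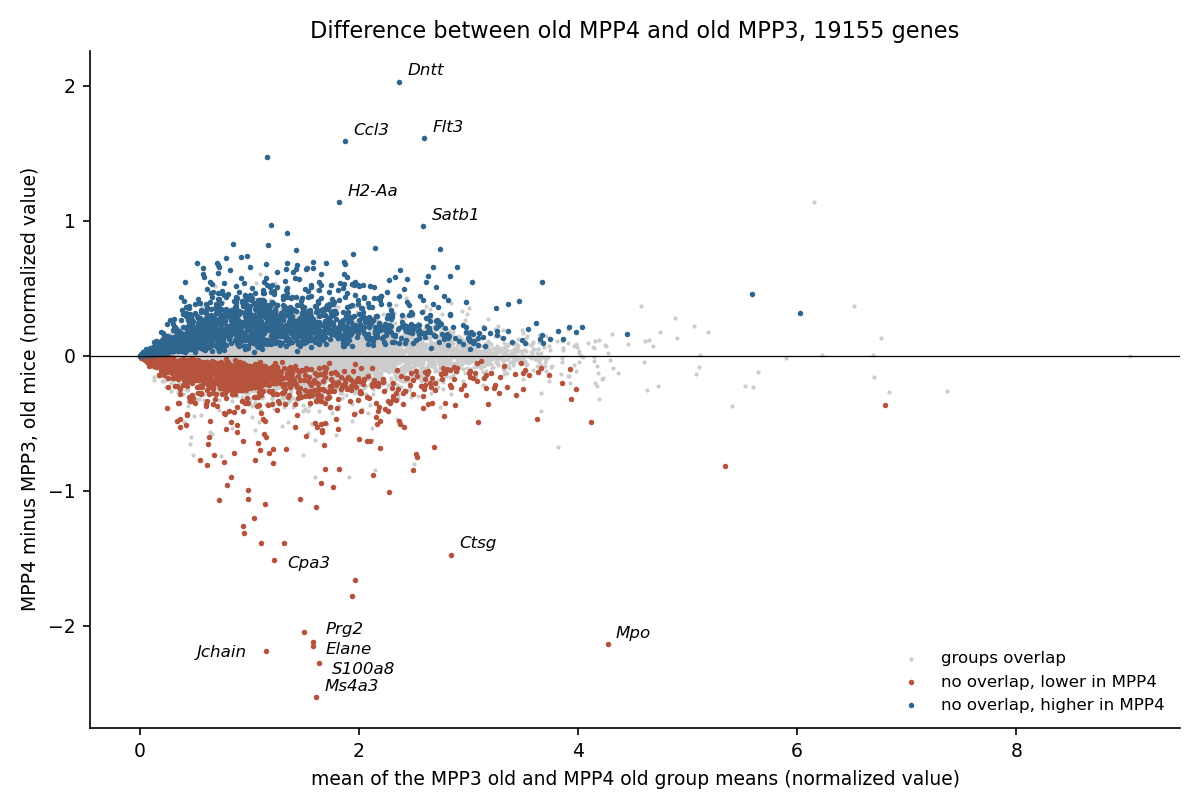
Difference between old MPP4 and old MPP3 (MPP4 minus MPP3, normalized value) against the mean of the group means for 19155 genes, 1 point a gene, coloured by whether the 3 arrays of each group overlapped. The lowest points are Ms4a3 at -2.53, S100a8 at -2.28 and Jchain at -2.18, and the highest is Dntt at 2.03.

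The gate genes and lineage markers described the labels in part. Flt3, whose protein defined the gate and whose transcript is thus no finding, read 1.84, 1.42 and 2.10 in the MPP3 old arrays and 3.53, 3.29 and 3.39 in the MPP4 old arrays. Kit, the receptor both gates required, read 3.02, 2.63 and 2.95 in MPP3 and 2.95, 3.00 and 2.80 in MPP4, with overlap. Slamf1, which encodes CD150, read 0.251, 0.126 and 0.192 in MPP3 and 0.111, 0.115 and 0.118 in MPP4, and Cd48 read 2.37, 2.34 and 2.48 against 2.52, 2.56 and 2.70. So the transcript of the CD48 gate was present in both populations and higher in MPP4, by 0.200. Of the other lymphoid-primed markers fixed for MPP4, Dntt, Notch1 and Satb1 were higher there without overlap, and Il7r and Ccr9 overlapped. Of the myeloid-primed markers fixed for MPP3, Mpo, Elane, Ctsg, Fcgr3 and Cebpa were higher in MPP3 without overlap, and Csf1r overlapped, at 0.464, 0.710 and 0.285 in MPP3 and 0.531, 0.391 and 0.474 in MPP4. The 8 lineage antigens stained out before the sort had a median difference of 0.00749, and none of them separated the groups.

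The primary granule list was higher in MPP3, with the lowest median difference of the 28 gene lists. Primary granules are the first granules that a promyelocyte fills, with proteases and peroxidase. The list was wider than the contents of these granules and also held, among others, Calr and Ms4a3, which encodes a membrane protein. Its counts and median therefore describe a mixed list. Of 19 measured genes, 18 had a lower mean in MPP4, 13 were lower without overlap and none was higher without overlap, with a median difference of -0.735 and a range from -2.53 to 0.109. Averaged over the list, the MPP3 old arrays stood at 2.68, 3.16 and 2.12 and the MPP4 old arrays at 1.67, 1.69 and 1.69. The median was -0.911 without MPP3 old replicate 3 and -0.448 without replicate 2, so that these 2 arrays moved the size and not the sign.

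Ms4a3, a membrane protein of granulocyte and monocyte progenitors, had the largest difference of all 19155 genes on the deposited scale. Its values were 2.96, 3.70 and 1.95 in MPP3 and 0.285, 0.421 and 0.319 in MPP4, a difference of -2.53 ± 0.442 (SE; limma adjusted p = 0.251, and 0.0548 in the fit of all 4 groups). Elane, which encodes neutrophil elastase, read 2.60, 3.43 and 1.93 in MPP3 and 0.339, 0.666 and 0.509 in MPP4. Its difference was -2.15 ± 0.388 (adjusted p = 0.261), and it was among the 27 genes of the alternative fit (adjusted p = 0.0230). The gap between the lowest MPP3 array and the highest MPP4 array was wide for both genes, and the spread lay almost wholly within MPP3.

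Mpo, the myeloperoxidase gene, read 5.81, 6.03 and 4.17 in MPP3 and 3.26, 3.19 and 3.16 in MPP4, a difference of -2.14 ± 0.511 (adjusted p = 0.343). Without MPP3 old replicate 3 the difference was -2.72 and the adjusted p 0.0199. Ctsg, which encodes cathepsin G, read 3.59, 4.25 and 2.88 against 2.31, 1.91 and 2.09 (-1.47 ± 0.359, adjusted p = 0.343). Hp, the haptoglobin gene, read 2.88, 3.40 and 1.29 in MPP3 and 0.466, 0.580 and 0.380 in MPP4, and Igsf6, an immunoglobulin-superfamily receptor, read 3.01, 3.44 and 2.04 against 0.915, 1.18 and 1.05. Prtn3, the proteinase 3 gene, overlapped, at 1.93, 2.54 and 1.11 in MPP3 and 1.15, 1.13 and 1.09 in MPP4. MPP3 old replicate 3 was the lowest MPP3 array for every gene in this paragraph and the last.

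**Figure D2:**
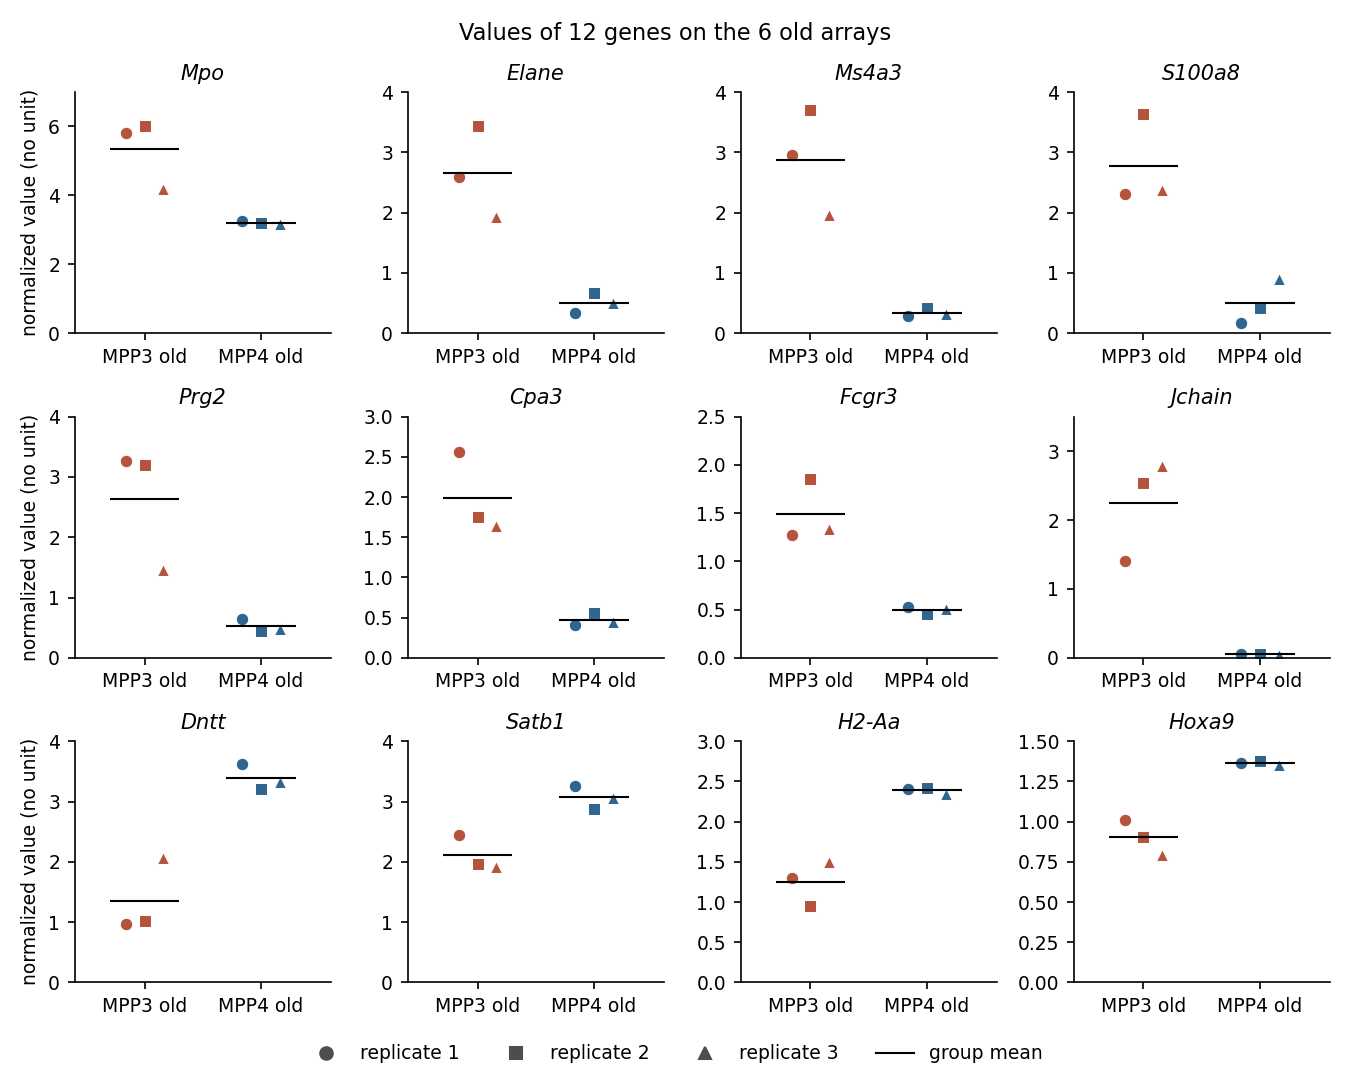
Normalized value of 12 genes on the 6 old arrays, with MPP3 and MPP4 side by side, 1 marker shape per replicate number and a line at each group mean. Elane, Ms4a3, Cpa3 and Jchain are well separated and lower in MPP4, Dntt, Satb1, H2-Aa and Hoxa9 are higher in MPP4, and the MPP3 points are wider apart than the MPP4 points for Mpo, Elane and Prg2.

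To show the regulatory sequence beside these values, the promoters of 4 genes that carry the lineage differences are printed from RefSeq (GRCm38.p6, 250 bases before to 50 after the start of the gene, 5′ to 3′ on the strand of the gene): the elastase and peroxidase genes of the granule program, the mast cell protease gene Cpa3, and Dntt of the lymphoid program. They lie at chr10:79886062-79886361 (Elane, plus strand), chr11:87793534-87793833 (Mpo, plus strand), chr3:20242132-20242431 (Cpa3, minus strand) and chr19:41029025-41029324 (Dntt, plus strand). Capitals mark matches, on either strand, to 5 motifs. For ETS factors only the form GAGGAA was searched, written ETS core below, so ETS sites with other flanking bases were not marked. For C/EBP factors, the degenerate string TTNNGNAA was used. RUNX factors were represented by the letters TGTGGT. Of the E-boxes, the elements of basic helix-loop-helix factors, only the form CAGGTG was searched and counted, so other E-boxes were not marked. Finally, the site of the erythroid and mast cell factor family GATA was searched as AGATAA.
Elane: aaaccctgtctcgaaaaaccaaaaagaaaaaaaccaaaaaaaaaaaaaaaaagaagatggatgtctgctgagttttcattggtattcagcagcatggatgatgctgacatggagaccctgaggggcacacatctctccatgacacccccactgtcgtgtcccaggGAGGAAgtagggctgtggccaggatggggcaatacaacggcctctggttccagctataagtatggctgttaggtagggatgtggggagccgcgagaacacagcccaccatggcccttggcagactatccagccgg
Mpo: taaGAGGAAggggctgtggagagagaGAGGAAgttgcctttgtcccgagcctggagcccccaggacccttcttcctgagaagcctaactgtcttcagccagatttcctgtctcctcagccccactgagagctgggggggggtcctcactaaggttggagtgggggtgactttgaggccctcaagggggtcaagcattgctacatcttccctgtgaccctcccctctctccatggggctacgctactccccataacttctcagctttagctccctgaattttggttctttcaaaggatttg
Cpa3: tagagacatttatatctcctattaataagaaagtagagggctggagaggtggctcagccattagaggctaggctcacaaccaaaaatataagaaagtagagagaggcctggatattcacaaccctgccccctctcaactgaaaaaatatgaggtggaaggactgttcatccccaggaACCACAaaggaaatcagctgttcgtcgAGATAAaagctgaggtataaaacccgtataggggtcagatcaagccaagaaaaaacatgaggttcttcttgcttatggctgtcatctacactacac
Dntt: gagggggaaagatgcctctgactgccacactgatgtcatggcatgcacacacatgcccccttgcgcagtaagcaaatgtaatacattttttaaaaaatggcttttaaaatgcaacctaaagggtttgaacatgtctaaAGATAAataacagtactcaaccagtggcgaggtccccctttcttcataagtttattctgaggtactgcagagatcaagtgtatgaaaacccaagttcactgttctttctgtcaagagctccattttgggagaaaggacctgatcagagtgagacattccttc
Elane held 1 ETS core match and Mpo 2, Cpa3 held 1 RUNX and 1 GATA match, and Dntt held 1 GATA match, with no overlap between motifs. Among all 32841 promoters of this length, 28.3% held the ETS core, 40.7% the C/EBP motif, 16.8% the RUNX motif, 20.2% the E-box and 11.2% the GATA motif. Of the 14 genes of the primary granule list with exactly 1 promoter entry, 8 held the ETS core, 8 the C/EBP motif, 5 the RUNX motif, 1 the E-box and 0 the GATA motif. Of 14 genes of the mast cell, basophil and eosinophil list, 6 held the ETS core, 4 the C/EBP motif, 6 the RUNX motif, 3 the E-box and 7 the GATA motif. Of 9 lymphoid priming genes, 2 held the ETS core, 2 the C/EBP motif, 2 the RUNX motif, 2 the E-box and 1 the GATA motif. Of 13 lymphoid transcription factor genes, 5 held the ETS core, 3 the C/EBP motif, 1 the RUNX motif and 0 the E-box or the GATA motif. A match is a run of letters and not a known site, and these counts were not tested.

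Genes of later granules and of mature neutrophils were lower in MPP4 for a few members only. Of 18 measured, 6 were lower and 1 higher without overlap, and the median was -0.0513, which was -0.0130 without MPP3 old replicate 2 and -0.0952 without replicate 3. S100a8 and S100a9 encode the 2 chains of calprotectin, the main cytosolic protein of neutrophils. S100a8 read 2.31, 3.63 and 2.38 in MPP3 and 0.167, 0.424 and 0.896 in MPP4 (-2.28 ± 0.418, adjusted p = 0.269, and 0.0412 in the fit of all 4 groups). S100a9 read 2.43, 3.33 and 2.62 against 1.14, 0.868 and 1.40 (-1.66 ± 0.276, adjusted p = 0.239). MPP3 old replicate 2 was the highest array for both. Among the defining markers fixed for mature neutrophils, Ngp read 0.815, 1.34 and 1.49 in MPP3 and 0.495, 0.342 and 0.648 in MPP4, and Camp 0.927, 1.53 and 0.764 against 0.590, 0.611 and 0.550. Ltf, the lactoferrin gene, overlapped, at 0.219, 0.280 and 0.277 in MPP3 and 0.208, 0.223 and 0.262 in MPP4. Averaged over the list, MPP3 ranged from 0.736 to 1.02 and MPP4 from 0.480 to 0.544. On this rank scale a value above 0 does not show that a transcript was present. The part of mature neutrophils in the S100a8 and S100a9 values was not tested.

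Monocyte, macrophage and dendritic cell genes did not move as a group. Of 22 measured, 10 had a higher mean in MPP4, 2 were higher and 3 lower without overlap, and the median was -0.0211. F13a1, the coagulation factor XIII A chain made by monocytes, read 1.92, 2.11 and 0.524 in MPP3 and 0.472, 0.493 and 0.413 in MPP4, with MPP3 old replicate 3 close to the MPP4 arrays. On the other side stood 2 genes of the cross-presenting dendritic cell. Xcr1, a chemokine receptor, read 0.147, 0.133 and 0.174 in MPP3 and 0.307, 0.319 and 0.246 in MPP4, and Clec9a, a receptor for dead cells, read 0.0891, 0.0783 and 0.110 against 0.172, 0.204 and 0.236. Every value of both genes lay well below the lowest array median, 0.662, so both ranked low in both populations. In young mice the Clec9a difference was -0.000183.

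The mast cell, basophil and eosinophil program was likewise lower in MPP4. Of 19 measured genes, 18 had a lower mean there, 8 were lower without overlap and none was higher without overlap, with a median of -0.317 and a range from -2.12 to 0.0122. The list averaged 1.21, 1.22 and 0.739 in the MPP3 arrays and 0.581, 0.561 and 0.584 in the MPP4 arrays. Its median was -0.410 without MPP3 old replicate 3 and -0.229 without replicate 2.

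Cpa3, the carboxypeptidase of mast cell granules, read 2.56, 1.75 and 1.64 in MPP3 and 0.406, 0.563 and 0.448 in MPP4. The difference of -1.51 ± 0.257 had an adjusted p of 0.239, and of 0.0447 in the fit of all 4 groups. Prg2, which encodes the major basic protein of eosinophils, read 3.26, 3.20 and 1.46 against 0.645, 0.441 and 0.477 (-2.12 ± 0.518, adjusted p = 0.343). Without MPP3 old replicate 3 its difference was -2.71 and its adjusted p 0.0199. Fcer1a, the alpha chain of the high-affinity IgE receptor, read 2.10, 1.42 and 0.258 in MPP3 and 0.213, 0.191 and 0.168 in MPP4, and its beta chain gene Ms4a2 read 0.767, 0.832 and 0.210 against 0.152, 0.116 and 0.130. In MPP3 old replicate 3 both chains were near the MPP4 level, whereas Cpa3 was not. Prss34, a basophil protease, read 1.14, 1.04 and 0.794 in MPP3 and 0.643, 0.545 and 0.492 in MPP4. Gata1, the factor shared by erythroid, megakaryocytic and mast cell lineages, read 0.993, 1.02 and 0.922 against 0.760, 0.711 and 0.755, a difference of -0.237 ± 0.0342 (adjusted p = 0.222). Whether a small share of committed mast cell or basophil precursors within the gate carries these values was not tested.

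Erythroid genes were more often lower than higher in MPP4. Of 20 measured, 16 had a lower mean there, 5 were lower without overlap (Car1, Gata1, Ermap, Epor and Icam4) and 1 was higher, and the median was -0.0508. Car1, the carbonic anhydrase of early erythroid cells, read 2.37, 1.40 and 1.31 in MPP3 and 0.542, 0.497 and 0.743 in MPP4 (-1.10 ± 0.305). Cnrip1 went the other way, at 0.853, 0.682 and 0.729 in MPP3 and 1.33, 1.13 and 1.03 in MPP4. Klf1, the erythroid master regulator, overlapped, at 0.307, 0.367 and 0.367 against 0.312, 0.260 and 0.281. Of 19 megakaryocyte and platelet genes, 2 were higher and 2 lower without overlap, with a median of -0.00831. Mmrn1, which encodes the platelet protein multimerin, read 0.577, 0.201 and 0.394 in MPP3 and 0.841, 1.17 and 0.745 in MPP4, while Pf4, platelet factor 4, overlapped at 0.891, 0.238 and 0.710 against 0.339, 0.718 and 0.416.

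**Figure D3:**
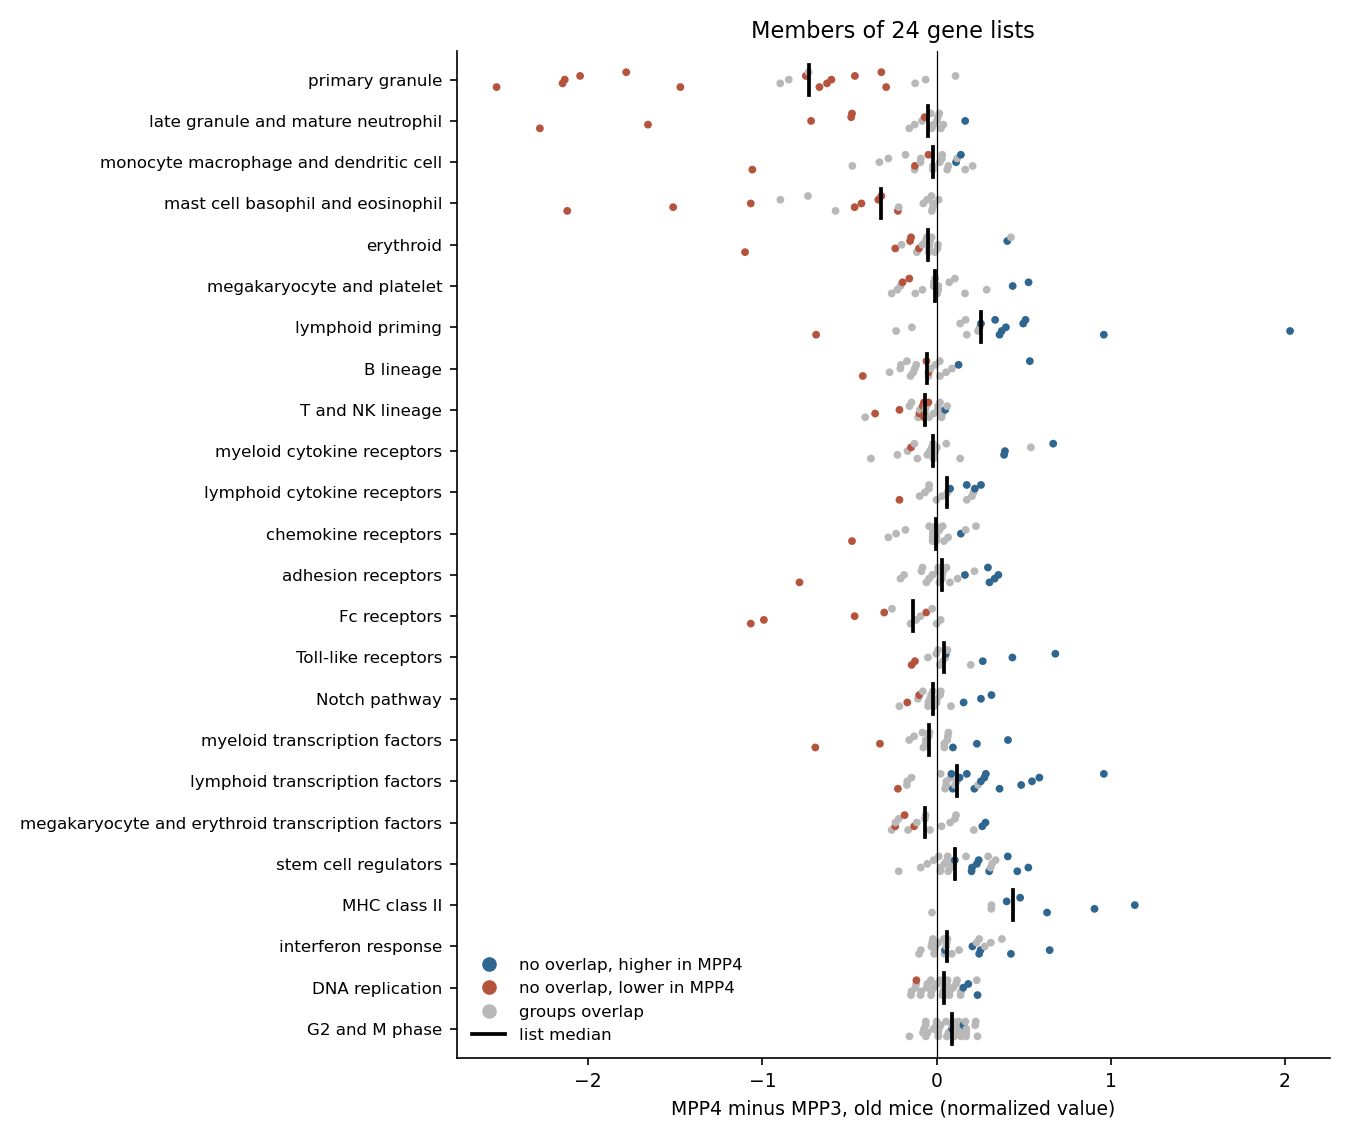
Difference between old MPP4 and old MPP3 (normalized value) for each measured member of 24 gene lists, 1 point a gene, with a bar at the list median. The primary granule list lies lowest, with a median of -0.735, and MHC class II lies highest, with a median of 0.441, while most lists straddle 0.

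The lymphoid priming list was higher in MPP4. Of 17 measured genes, 14 had a higher mean there, 9 were higher and 1 lower without overlap, and the median was 0.255 with a range from -0.692 to 2.03. List means were 1.40, 1.25 and 1.59 in the MPP3 arrays and 1.87, 1.68 and 1.68 in the MPP4 arrays. The median was 0.303 without MPP3 old replicate 3 and 0.195 without replicate 2.

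Dntt, which encodes the terminal transferase that adds bases at the joints of antigen receptor genes, had the largest positive difference of all genes tested on the deposited scale. It read 0.977, 1.01 and 2.07 in MPP3 and 3.63, 3.21 and 3.32 in MPP4, a difference of 2.03 ± 0.331 (adjusted p = 0.239, and 0.0290 in the fit of all 4 groups). MPP3 old replicate 3 was the highest MPP3 array and still lay below each MPP4 array. Satb1, a chromatin organizer needed for lymphoid development, read 2.44, 1.96 and 1.92 against 3.26, 2.88 and 3.06 (0.961 ± 0.178, adjusted p = 0.269). Cd27, a receptor of the TNF receptor family, read 2.56, 2.16 and 2.62 in MPP3 and 3.14, 2.90 and 2.83 in MPP4. Rag1, the recombinase gene, did not overlap, at 0.331, 0.319 and 0.662 against 1.04, 0.761 and 0.707 (difference 0.398). Il7r, the receptor chain for the cytokine that drives B and T cell precursors, read 0.507, 0.320 and 0.700 in MPP3 and 0.937, 0.418 and 0.692 in MPP4, so the groups overlapped. Of the 3 members with a lower mean in MPP4, Ccr7, a homing receptor, and Ly6d overlapped (differences of -0.232 and -0.142). The remaining member, Ighm, the mu heavy chain gene, did not overlap, at 1.37, 1.52 and 1.79 in MPP3 and 0.947, 0.777 and 0.884 in MPP4 (-0.692 ± 0.117, adjusted p = 0.0184 in the fit of all 4 groups).

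Genes of committed lymphocytes did not follow the priming genes. Of 20 B lineage genes, 6 had a higher mean in MPP4, 2 were higher and 3 lower without overlap, and the median was -0.0524, which became 0.0166 without MPP3 old replicate 3 and -0.0919 without replicate 1. Cd72, a coreceptor of B cells, read 1.60, 1.24 and 1.84 in MPP3 and 2.01, 2.09 and 2.19 in MPP4. Cd79a, a signalling chain of the B cell receptor, read 0.198, 0.310 and 0.931 against 0.139, 0.218 and 0.272, with MPP3 old replicate 3 alone above the rest. Of 24 T and NK genes, 7 had a higher mean in MPP4, 1 was higher and 8 lower without overlap, with a median of -0.0665. Il2rb, a shared chain of the interleukin 2 and 15 receptors, read 0.615, 0.372 and 0.514 in MPP3 and 0.295, 0.293 and 0.274 in MPP4. The T cell antigens Cd3e, Cd4 and Cd8a overlapped.

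Plasma cell genes were lower in MPP4, a group listed after its values were seen. Of 11 genes, all had a lower mean in MPP4 and 9 did not overlap, with a median of -0.379. Jchain, which encodes the chain that joins secreted IgM and IgA, read 1.40, 2.53 and 2.78 in MPP3 and 0.0572, 0.0620 and 0.0486 in MPP4 (-2.18 ± 0.370, adjusted p = 0.00932 in the fit of all 4 groups). Igha, the alpha heavy chain gene, read 0.551, 1.29 and 1.30 against 0.336, 0.280 and 0.308. The list averaged 0.830, 1.19 and 1.32 in the MPP3 arrays and 0.597, 0.545 and 0.560 in the MPP4 arrays. Here too, a value above 0 does not show that a transcript was present. Ighm, described among the lymphoid priming genes, is also 1 of these 11. The part of plasma cells in the immunoglobulin values was not tested.

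**Figure D4:**
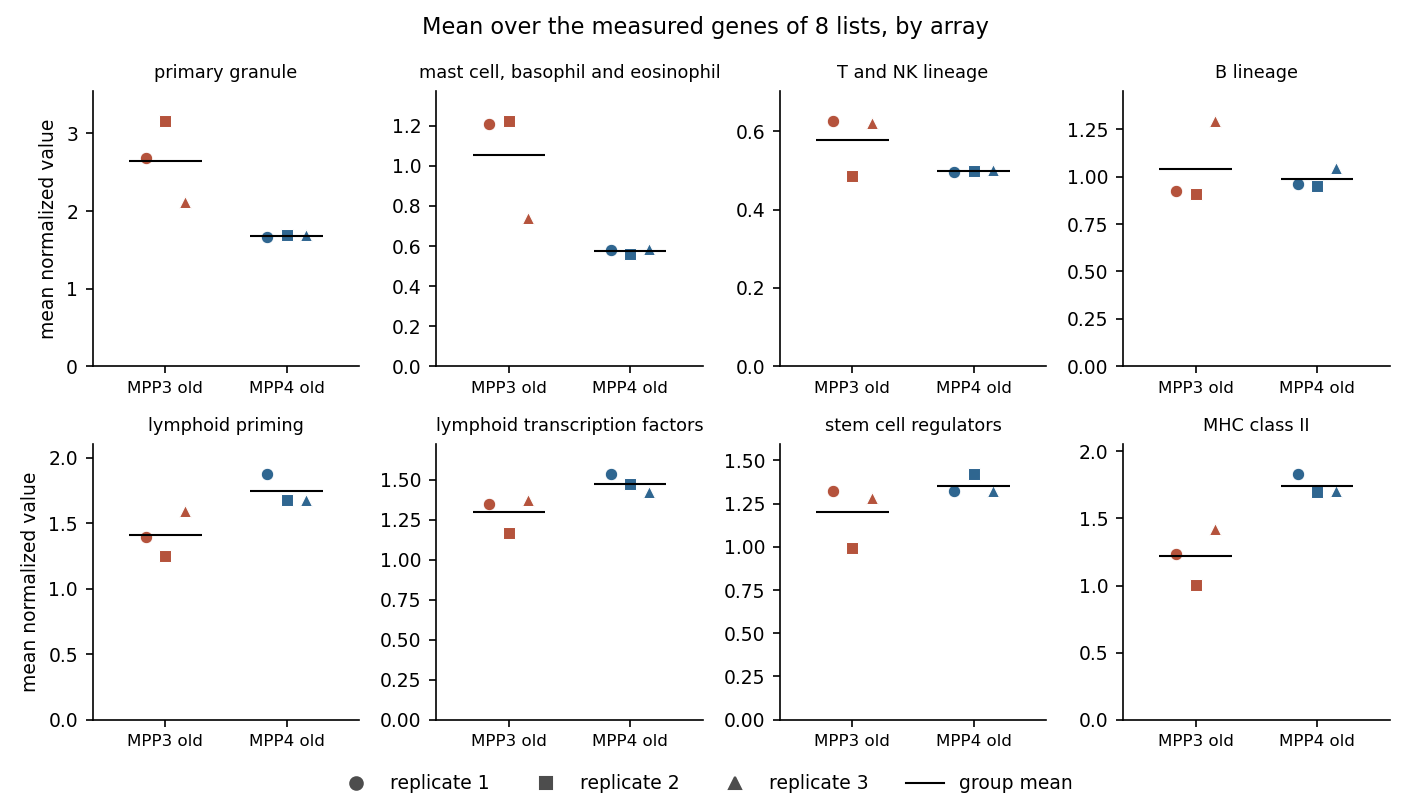
Mean normalized value over the measured members of 8 gene lists on each of the 6 old arrays, with MPP3 and MPP4 arrays marked apart. The primary granule means fall between 2.12 and 3.16 in MPP3 and between 1.67 and 1.69 in MPP4, the lymphoid priming means are higher in MPP4, and the B lineage means overlap.

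MHC class II genes, which present peptides to CD4 T cells, were higher in MPP4. Of 8 measured, 7 had a higher mean and 5 were higher without overlap, with a median of 0.441, which was 0.524 without MPP3 old replicate 3 and 0.370 without replicate 2. H2-Aa, an alpha chain, read 1.30, 0.951 and 1.50 in MPP3 and 2.40, 2.42 and 2.34 in MPP4, a difference of 1.14 ± 0.142 (adjusted p = 0.203, and 0.0883 in the fit of all 4 groups). H2-Ab1, the beta chain that pairs with it, read 2.08, 1.59 and 2.51 against 2.62, 2.63 and 2.83. H2-Ob, a chain of the H2-O chaperone found in B cells, read 0.953, 0.590 and 1.13 in MPP3 and 2.19, 1.49 and 1.70 in MPP4. Cd74, the invariant chain, overlapped at 0.853, 1.25 and 1.48 against 1.52, 1.55 and 1.45, and Ciita, the class II transactivator, also overlapped, with a difference of -0.0264. The 5 genes without overlap were thus chains of class II molecules and not their transactivator.

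Among surface receptors, those for the Fc part of antibodies were lower in MPP4. Of 12 Fc receptor genes, 10 had a lower mean, 5 were lower without overlap and none was higher without overlap, with a median of -0.133 that was -0.0583 without MPP3 old replicate 3 and -0.134 without replicate 2. Fcgr3, the activating IgG receptor CD16, read 1.27, 1.85 and 1.34 in MPP3 and 0.528, 0.454 and 0.504 in MPP4 (-0.992 ± 0.162, adjusted p = 0.239, and 0.00932 in the fit of all 4 groups). Its signalling partner Fcer1g, the common gamma chain of Fc receptors, read 1.66, 1.72 and 1.70 against 1.33, 1.54 and 1.31. The other 3 of the 5 were Fcgr4, another IgG receptor, with a difference of -0.0591, and the IgE receptor chains Fcer1a and Ms4a2, which in MPP3 old replicate 3 were near the MPP4 level. The inhibitory IgG receptor Fcgr2b overlapped, at 0.621, 1.24 and 0.778 in MPP3 and 0.666, 0.668 and 0.539 in MPP4.

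Cytokine receptors divided gene by gene. Of 20 myeloid cytokine receptor genes, 3 were higher and 1 lower without overlap, with a median of -0.0196, and Csf3r, the G-CSF receptor, had a difference of 0.00168 with overlap. Il18rap, the accessory chain of the interleukin 18 receptor, read 1.18, 1.17 and 0.934 in MPP3 and 1.92, 1.88 and 1.49 in MPP4 (0.670 ± 0.139, adjusted p = 0.0548 in the fit of all 4 groups). Il6st, the signalling chain gp130 of the interleukin 6 family, read 1.41, 1.41 and 1.46 against 1.97, 1.68 and 1.81. Of 15 lymphoid cytokine receptor genes, a list that held the type I interferon receptors, 4 were higher and 1 lower without overlap, with a median of 0.0627. Ifnar2, a chain of the type I interferon receptor, read 2.55, 2.53 and 2.49 in MPP3 and 2.79, 2.77 and 2.78 in MPP4, a small difference of 0.255 ± 0.0236 with a tight spread (adjusted p = 0.203). Its partner Ifnar1 was also higher without overlap, by 0.220.

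Chemokine receptors did not separate the groups as a list, with 1 of 20 higher and 1 lower without overlap and a median of -0.00441. Cxcr2, the neutrophil receptor for CXC chemokines, read 0.575, 1.15 and 0.939 in MPP3 and 0.508, 0.257 and 0.437 in MPP4. Adhesion receptors had 5 of 23 higher and 1 lower without overlap, and a median of 0.0314. Vcam1, the ligand of the integrin VLA-4, read 0.866, 1.74 and 0.885 in MPP3 and 0.356, 0.381 and 0.388 in MPP4, with MPP3 old replicate 2 far above the other MPP3 arrays. Alcam, which encodes CD166, read 1.77, 1.90 and 1.74 against 2.12, 2.21 and 1.97, and Cd93, a C-type lectin receptor of early progenitors, read 2.56, 2.45 and 2.47 against 2.93, 2.72 and 2.74. Sele, the E-selectin gene, which was outside the list and among the 27 genes of the alternative fit, read 1.40, 1.53 and 1.28 in MPP3 and 0.659, 0.802 and 0.804 in MPP4 (-0.649 ± 0.0779, adjusted p = 0.00848 in that fit).

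Toll-like receptors and their partners had 4 of 14 higher and 2 lower without overlap, with a median of 0.0436. Cd180, a Toll-like receptor relative of B cells, read 1.57, 1.70 and 1.31 in MPP3 and 2.31, 2.09 and 2.23 in MPP4 (0.682 ± 0.115). Ly96, which encodes the MD-2 partner of the endotoxin receptor, was higher by 0.435 and Tlr7, a sensor of single-stranded RNA, by 0.265, whereas Tlr1, a sensor of lipopeptides, was lower by 0.143, each without overlap.

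Of the 4 Notch receptor genes, Notch1 and Notch2 were higher in MPP4 without overlap, and Notch3 and Notch4 overlapped, with differences of 0.00241 and -0.0386. The Notch pathway list had 3 of 19 genes higher and 2 lower without overlap and a median of -0.0211. Notch1 read 1.03, 0.934 and 0.984 in MPP3 and 1.34, 1.24 and 1.12 in MPP4, a difference of 0.255 ± 0.0622, and Notch2 read 1.46, 1.12 and 1.39 against 1.78, 1.64 and 1.49. Among target genes, Nrarp, a feedback inhibitor, read 0.512, 0.391 and 0.450 in MPP3 and 0.615, 0.588 and 0.616 in MPP4. Dtx1, another target, went the other way, at 1.07, 1.04 and 1.15 against 0.977, 0.878 and 0.905, and Hes5 was lower without overlap by 0.0997. Hes1, the most widely used target, overlapped (difference 0.0827), and so did the ligand gene Dll4 (-0.107).

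Of the regulators, lymphoid transcription factors were higher in MPP4 as a list. Among 25 measured, 21 had a higher mean, 13 were higher and 1 lower without overlap, and the median was 0.117, with list means of 1.35, 1.17 and 1.37 in the MPP3 arrays and 1.53, 1.47 and 1.42 in the MPP4 arrays. Satb1, described above with the lymphoid priming genes, had the highest difference of this list, 0.961. Tcf4, an E protein of the dendritic and B lineages, read 1.74, 1.57 and 1.76 in MPP3 and 2.39, 2.25 and 2.07 in MPP4 (0.548 ± 0.0978, adjusted p = 0.0251 in the fit of all 4 groups). Mef2c, which acts in early lymphoid specification, read 2.34, 2.19 and 2.48 against 3.06, 2.89 and 2.83 (0.590 ± 0.0964). Named after their values were seen, Ikzf1, the Ikaros gene, read 2.36, 2.22 and 2.26 in MPP3 and 2.65, 2.47 and 2.38 in MPP4, and its relative Ikzf3, the Aiolos gene of later B cells, was the only factor lower without overlap, at 0.328, 0.474 and 0.543 against 0.263, 0.226 and 0.192.

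Myeloid transcription factors were mixed, with 3 of 18 higher and 2 lower without overlap and a median of -0.0428. Cebpe, which drives late granulocyte maturation, read 1.13, 1.76 and 1.45 in MPP3 and 0.706, 0.843 and 0.705 in MPP4 (-0.696 ± 0.164). Cebpa, the C/EBP factor needed to form granulocyte and macrophage progenitors, read 1.62, 2.03 and 1.79 against 1.51, 1.40 and 1.54 (-0.325 ± 0.111), a narrow gap between the lowest MPP3 and the highest MPP4 array. Spi1, which encodes PU.1, and Irf8, the monocyte and dendritic cell factor, overlapped, with differences of -0.129 and 0.0677. Higher in MPP4 were Nfil3, a bZIP factor of NK and innate lymphoid development, by 0.410, and Hoxa10 by 0.231. Megakaryocyte and erythroid factors had 2 of 18 higher and 3 lower without overlap, Gata1 among the lower.

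Stem cell regulators were higher in MPP4 for 23 of 27 genes, 9 of them without overlap and none lower without overlap, with a median of 0.105. That median was 0.0198 without MPP3 old replicate 2, 0.174 without replicate 1 and 0.206 without replicate 3. Replicate 2 had the lowest list mean, 0.995, beside 1.32 and 1.28 in the other MPP3 arrays and 1.32, 1.42 and 1.32 in the MPP4 arrays. The 9 included Hoxa5, Hoxa9 and Hoxa10. Hoxa9, a homeobox factor of progenitor self-renewal, read 1.01, 0.906 and 0.793 in MPP3 and 1.37, 1.38 and 1.35 in MPP4 (0.463 ± 0.0571, adjusted p = 0.00848 in the fit of all 4 groups), and Hoxa5 read 0.802, 0.739 and 0.740 against 1.07, 1.20 and 1.24 (0.409 ± 0.0508). Meis1, the partner of HOX proteins, and Hlf and Erg, both stem cell factors, overlapped. MPP3 old replicate 2 was the low array in all 3, with Meis1 at 1.82 beside 2.98 and 3.02 in the other MPP3 arrays.

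Genes of division did not separate the populations beyond the background. Among 36 G2 and M phase genes, 27 had a higher mean in MPP4 but 2 were higher without overlap, and the median of 0.0893 became -0.0152 without MPP3 old replicate 3, 0.122 without MPP3 old replicate 2 and 0.0300 without MPP4 old replicate 2. Mki67, the proliferation antigen, read 2.95, 2.92 and 2.79 in MPP3 and 2.80, 2.93 and 2.99 in MPP4, a difference of 0.0231. Of 36 DNA replication genes, 3 were higher and 1 lower without overlap, with a median of 0.0441. Among 6 inhibitors of cyclin-dependent kinases, Cdkn1b, which encodes p27, was higher without overlap at 1.79, 1.71 and 1.75 in MPP3 and 2.03, 1.96 and 1.91 in MPP4, and the other 5 overlapped. Interferon response genes had 6 of 27 higher and none lower without overlap, with a median of 0.0578. That median was 0.119 without MPP3 old replicate 3, 0.0998 without MPP4 old replicate 2, 0.0897 without MPP4 old replicate 1 and 0.0303 without MPP4 old replicate 3. Rtp4 was higher by 0.649 and Irf9, the DNA-binding part of the ISGF3 complex, by 0.427.

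Several of the largest differences lay outside the lists, and these genes were chosen after their values were seen. Ccl3, which encodes the chemokine MIP-1 alpha, read 0.999, 1.43 and 0.807 in MPP3 and 2.90, 2.69 and 2.42 in MPP4 (1.59 ± 0.202, adjusted p = 0.203, and 0.00791 in the fit of all 4 groups). Wfdc17 read 0.361, 0.679 and 0.229 against 2.29, 1.44 and 1.94 (1.47 ± 0.246). Cd33, a surface receptor of myeloid cells, was also higher in MPP4, unlike the myeloid genes Trem3 and Cybb below. Its highest MPP3 array read 0.809, and the MPP4 arrays read 2.27, 1.28 and 1.48 (0.970 ± 0.270, adjusted p = 0.383). In young mice Cd33 was likewise higher in MPP4 without overlap. Mctp2, a membrane protein with C2 domains, shared the smallest adjusted p of the contrast and read 0.540, 0.403 and 0.372 in MPP3 and 1.25, 1.29 and 1.25 in MPP4 (0.828 ± 0.0496, adjusted p = 0.0886, and 0.00848 in the fit of all 4 groups). On the MPP3 side, Trem3, a receptor of myeloid cells, read 1.68, 2.43 and 1.27 in MPP3 and 0.436, 0.421 and 0.376 in MPP4 (adjusted p = 0.0279 in that fit). Cybb, the heavy chain of the phagocyte oxidase, read 1.39, 2.32 and 0.997 against 0.305, 0.238 and 0.382. Macroh2a1, a histone variant gene, was higher in MPP4, at 3.17, 3.17 and 3.18 in MPP3 and 3.67, 3.47 and 3.52 in MPP4 (adjusted p = 0.0230 in that fit). The remaining genes that passed in the fit of all 4 groups were Cbx2, Heg1, Fbxo32, Hivep2, Foxred2, Rgl1, Camk1d, Ift81, Myof, Fundc1 and Tnip3, all higher in MPP4, and Sh2d1b1, lower.

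The same contrast in young mice, which shares no array with the old contrast, was set beside it. There 25 genes (0.131%) passed in limma, and 1430 (7.47%) did not overlap. The groups did not overlap at either age for 345 genes, 295 in the same direction and 50 in opposite directions. The primary granule median was -0.735 in old and -0.334 in young mice, the mast cell, basophil and eosinophil median -0.317 and -0.0822, and the lymphoid priming median 0.255 and 0.0705. The MHC class II median was 0.441 and 0.223, and the stem cell regulator median 0.105 and 0.0113. Other medians changed sign: the lymphoid transcription factor median was 0.117 in old and -0.0173 in young mice, and the G2 and M phase median 0.0893 and -0.0867. Several single genes kept their direction: Ms4a3 was lower by 2.53 in old and by 1.34 in young mice, Elane by 2.15 and 1.06, Mpo by 2.14 and 1.15, and Cpa3 by 1.51 and 1.33. Dntt was higher by 2.03 in old and 1.36 in young mice, and Ccl3 by 1.59 and 1.63. For Jchain the difference was -2.18 in old and -3.06 in young mice.

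Whether these differences themselves changed with age was tested with the interaction over 14 arrays, and 0 genes passed in limma (0%; smallest adjusted p 0.200; 1200 genes at an unadjusted p under 0.05, 6.26%). Fcgr3 differed by -0.992 in old and -0.283 in young mice, with an adjusted p of 0.524 for the change. Cd27 was higher in MPP4 by 0.511 in old mice and lower by 0.0921 in young mice, and Cebpa was lower by 0.325 in old and higher by 0.131 in young mice, with neither change passing. Cd74 differed by 0.314 in old mice and by -0.528 in young mice. When single arrays were left out, 10 genes passed without MPP3 old replicate 3 and 4 without MPP3 young replicate 1.

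**Figure D5:**
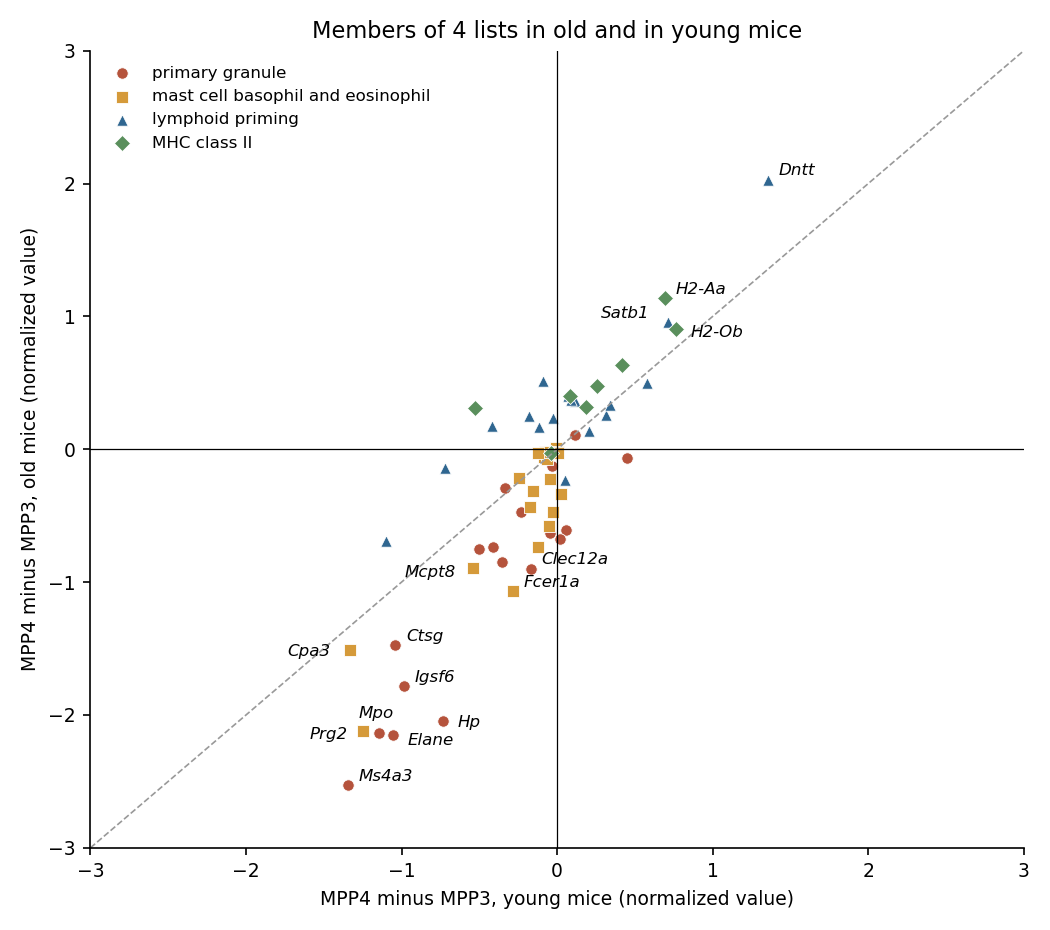
Difference between MPP4 and MPP3 (normalized value) in old mice against that in young mice for the measured members of 4 gene lists, with a dashed line of equal difference. Ms4a3, Elane, Mpo and Hp lie below the line, farther from 0 in old mice, and Cpa3 and H2-Ob lie near it; no gene passed the test of this change.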

How the data were processed

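RNA from 14 sorted populations was hybridized to Affymetrix Mouse Gene ST 1.0 arrays. The authors deposited 1 table: RMA values (version not given in the sources used here) mapped on each array to an exponential distribution of rate 1, which gives a rank-based score, used as deposited. With 25307 ranked probe sets assumed, 92.3% of values fell within 0.01 of a whole rank, array medians were 0.662 to 0.675, and the scale keeps no record of brightness, so precision rests on the number of arrays.

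Of 22115 probe sets, 19980 were listed in the platform annotation, which can be old; 744 with several symbols were left out and 2135 were unlisted. From 19236 with 1 symbol, the probe set with the highest mean over the 14 arrays was kept for each of 76 genes with several, leaving 19155 genes; the gene identifiers of 71 probe sets were not in the RefSeq table.

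MPP4 old was tested against MPP3 old with limma 3.58.1 (R 4.3.3; lmFit, eBayes, two-sided, Benjamini-Hochberg over all 19155 genes, threshold 0.05), after a run on simulated data. SE is the moderated standard error of this fit, also where an adjusted p of the 4-group fit stands beside it. The n is 3 per old group. Alternatives were normal scores, log2 of the value with a pseudocount of 0.1, removal of the dimmest 33.3% of genes, centring, every probe set, trend with robust fitting, array weights, the replicate block, 1 fit of all 4 groups, and each array left out. The 4-group fit with an array left out or with array weights was added after the data were seen.

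The comparison and its 28 gene lists were chosen with earlier results of these data known, and lists carry no test. Genes named were up to 4 per list by the moderated statistic, the gate, Notch and kinase inhibitor genes and the fixed markers. The rule's largest genes past the threshold were none, so the 20 largest each way, the alternative fit's calls and other list members named were chosen after values were seen. Promoters came from RefSeq for 15258 of the genes tested. Figures were drawn with matplotlib 3.10.9 in Python 3.11.15.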

Additional observations from a re-analysis of the deposited data

How the results depend on the processing

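The count of 0 genes passing in old mice remained 0 with centring, every probe set, trend with robust fitting, array weights and without any 1 MPP4 old array. It was 2 with normal scores (Jchain and Mctp2), 1 on the log2 scale (Jchain) and 1 without the dimmest genes (Mctp2). Leaving out single arrays gave 0 to 3 genes: 3 without MPP3 old replicate 1 (Igha, Jchain and Mctp2) and 2 without replicate 3 (Mpo and Prg2). In 1 fit of all 4 groups 27 passed and 619 with array weights; without MPP3 old replicates 1, 2 and 3 in turn 35, 27 and 85 passed, and without MPP4 old replicates 1, 2 and 3 in turn 0, 11 and 21. Deviations of same-numbered arrays from their group means correlated at 0.0485, 0.00773 and -0.0428. With 3 arrays a group, these values cannot tell whether same-numbered arrays came from the same mice or sort. With the replicate block 0 passed (smallest adjusted p 0.444). For the change with age, 0 passed with the replicate block, 2 with trend and robust fitting, 574 with array weights and 0 to 10 with an array left out. The causes were not tested. The weights were 0.498 and 0.236 for MPP3 old replicates 2 and 3 and 2.59 for replicate 1. Among named genes 80 of 4411 recomputed differences, in 16 genes, changed sign, none of them without overlap, and the largest was 0.142. Ranks bound what dim genes can show, since values near 0 compress differences.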

Other observations

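Genes of the bone marrow stroma and endothelium, which the sort should leave out, did not differ in 1 direction as a list. Of 15 measured, 7 had a higher mean in MPP4, 2 were lower without overlap and none was higher without overlap, with a median difference of -0.000127. The largest difference within the list was that of Emcn, the endomucin gene, which overlapped at 0.263, 0.397 and 0.631 in MPP3 old and 0.582, 1.32 and 0.950 in MPP4 old. Sele, the E-selectin gene, and Vcam1, both described with the adhesion receptors, were not in this list. Both were lower in MPP4 old without overlap, Sele with a difference of -0.649. Cdh5, the cadherin of endothelial cells, read 0.536, 0.533 and 0.618 in MPP3 old and 0.508, 0.467 and 0.470 in MPP4 old, and Lepr, the receptor that marks perisinusoidal stroma, stayed at or under 0.0671 in every old array.

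Further genes with large differences were also chosen after their values were seen. P2ry14, a receptor for nucleotide sugars, read 2.08, 1.40 and 1.75 in MPP3 old and 2.79, 2.40 and 2.44 in MPP4 old. Cd69, an early activation antigen, read 1.33, 2.01 and 1.37 against 2.37, 2.16 and 2.44, and Ptgs2, the inducible cyclooxygenase, read 1.07, 0.907 and 1.01 against 1.98, 1.30 and 1.76. Slpi, a secreted inhibitor of leukocyte elastase, read 1.59, 2.60 and 2.30 in MPP3 old and 1.19, 0.976 and 0.971 in MPP4 old. Alas1, the first enzyme of heme synthesis outside the erythroid lineage, read 2.02, 2.63 and 1.32 against 0.925, 0.840 and 1.03. Sgms2, a sphingomyelin synthase, read 1.36, 2.53 and 0.912 against 0.285, 0.287 and 0.299, with MPP3 old replicate 2 the highest array.

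The sex-linked transcript Xist lay in all 6 old arrays between 0.126 and 0.215, and Eif2s3y, a gene of the Y chromosome, read between 1.69 and 2.06, so neither separated the groups.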
